A study of Mus musculus with 10 samples.

Results

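The genotype dependence of the response to sheep red blood cells (SRBC) was measured in splenic type 2 conventional dendritic cells (cDC2). It was defined for each gene as the interaction: the response of Notch2-11cKO cells (SRBC minus untreated, log2) minus the response of WT cells. A negative interaction means that a gene went up less, or down more, in Notch2-11cKO cells than in WT cells. A positive interaction means the opposite. The contrast needed all 4 groups, so it used 10 of the 10 arrays in the series and was computed for 19938 genes, each represented by its brightest probe set.

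WT mice were left untreated (n = 2 arrays) or were analysed 24 h after an intraperitoneal injection of 200000000 SRBC (n = 3). Notch2-11cKO mice carry CD11c-Cre and floxed Notch2 alleles (Notch2f/f), and were likewise untreated (n = 2) or given SRBC (n = 3). The Cre is driven by the CD11c promoter, so deletion is not limited to cDC2 and can occur in other CD11c-expressing cells. Spleens were digested, CD11c+ cells were enriched, and cDC2 were sorted. The labels give no age or sex, do not say whether an array held 1 or several mice, and do not give the sorting gate. P-values therefore measure the spread between these arrays, which may be partly technical.

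Notch2 is a cell-surface receptor that, once cleaved after contact with a Delta-like or Jagged ligand, releases an intracellular fragment that joins the DNA-binding protein RBPJ and switches on targets such as Hes1 and Dtx1. In the spleen, Notch2 signalling is known to be needed for the ESAM-high fraction of cDC2, which sits near the marginal zone and the bridging channels. SRBC are a particulate antigen without an adjuvant; splenic cDC2 that capture them mature, switch on Ccr7 and move to the border of B and T cell zones, where they start T follicular helper and germinal centre responses. An interaction asks whether that change differs between genotypes, and not whether the genotypes differ in level.

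The arrays of each group did not agree equally well. Over the brighter 9969 genes, the untreated arrays correlated at 0.982 in WT and 0.977 in Notch2-11cKO. WT SRBC array 1 correlated at 0.929 and 0.928 with the other WT SRBC arrays, which correlated at 0.984 with each other. Notch2-11cKO SRBC array 3 correlated at 0.947 and 0.936 with the others of its group, against 0.972 between those. These arrays, one in each SRBC group, are called the 2 arrays that stand apart, and main results are also given from the other 8. The Notch2 probe set did not separate the genotypes (untreated: 8.11 and 8.14 in WT, 8.37 and 8.17 in Notch2-11cKO), and no source used here says whether it covers the deleted part of the gene, so it does not check the labels. The mean of the cDC2 markers lay between 8.04 and 9.03 on all arrays, against 5.27 to 5.33 for all genes, while T cell markers averaged 4.72 to 5.13 and B cell markers 4.36 to 5.08. Monocyte markers averaged 6.94 to 7.19 in WT and 7.96 to 8.48 in Notch2-11cKO cells, macrophage markers 5.78 to 6.71 and 7.16 to 7.57, and plasmacytoid dendritic cell markers 5.86 to 6.27 and 6.51 to 6.96. Different probe sets differ in brightness, so these means compare arrays and not cell types.

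The SRBC response differed between genotypes in 4 genes at an adjusted p under 0.05, 0.0201% of the 19938 tested. Car2 and Cd63 rose in WT cells, Car2 without a detected change in Notch2-11cKO cells and Cd63 with a far smaller difference there. Rnase2a rose only in the Notch2-11cKO response among the 2 responses tested, and its interaction was positive. Hes1 fell in WT cells and started low in untreated Notch2-11cKO cells. Of the 4 interactions 2 were positive and 2 negative, each 0.01% of the genes tested, and the smallest was 1.53 in absolute size, against a median standard error of 0.245. With unadjusted p under 0.05, 1289 genes (6.47%) were reached, so most of the genes described further on rest on weaker evidence than these 4.

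Car2 encodes carbonic anhydrase 2, a cytosolic enzyme that interconverts carbon dioxide and bicarbonate; it is abundant in red cells and is also made by some myeloid cells. Its log2 level was 5.28 and 5.31 in untreated WT arrays and 7.38, 7.35 and 7.55 after SRBC. In Notch2-11cKO cells it was 4.57 and 4.84 untreated and 4.52, 4.53 and 4.69 after SRBC. All 3 WT arrays after SRBC lay above every other array, and the Notch2-11cKO groups overlapped. The WT response was 2.13 ± 0.15 (SE), or 4.38-fold, with an adjusted p of 7.29e-05. The Notch2-11cKO response was -0.13 ± 0.15, with an adjusted p of 0.843. The interaction was -2.26 ± 0.21, with an adjusted p of 0.00526 that became 0.103 without WT untreated array 1. Erythroid markers averaged 4.77 and 4.88 in untreated WT arrays and 5.04 to 5.13 after SRBC, and 4.50 to 4.60 on all Notch2-11cKO arrays. Car2 is 1 of the 9 genes in that list, so its own rise is part of the WT means. The median WT response of the list was 0.12. At the adjusted threshold 2 of its 9 genes, Car2 among them, rose in WT cells and 1 fell, against 1.82% and 1.97% of all genes. Besides Car2, Car1 had a negative and Tfrc a positive interaction at unadjusted p under 0.05. The part of erythroid cells in the Car2 change was not tested. In bulk samples a change in the share of cells that make a transcript and a change in RNA per cell cannot be told apart.

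Cd63 encodes a tetraspanin of late endosomes, lysosomes and exosomes. Its level was 8.49 and 8.56 in untreated WT cells and 11.10, 11.09 and 11.23 after SRBC. In Notch2-11cKO cells it was already 11.15 and 10.93 untreated, and it was 11.53, 11.60 and 11.73 after SRBC. Untreated Notch2-11cKO arrays thus sat near the level of WT arrays that had received SRBC, and the groups within each genotype did not overlap. WT cells rose by 2.61 ± 0.14 (6.11-fold), while the difference in Notch2-11cKO cells was 0.58 ± 0.14 with an adjusted p of 0.133. The interaction was -2.03 ± 0.20, with an adjusted p of 0.00526. It was 0.103 without WT untreated array 1 and 0.0841 without Notch2-11cKO untreated array 1.

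The 250 bases before the Cd63 start are shown because they hold a match to a motif searched, in capitals (RefSeq, GRCm38.p6, chr10:128909095-128909344, plus strand). The match is to TTCNNGAA, the letters of a heat shock element, searched on both strands; 7.45% of 15614 promoters of measured genes hold these letters in the same window.
Cd63: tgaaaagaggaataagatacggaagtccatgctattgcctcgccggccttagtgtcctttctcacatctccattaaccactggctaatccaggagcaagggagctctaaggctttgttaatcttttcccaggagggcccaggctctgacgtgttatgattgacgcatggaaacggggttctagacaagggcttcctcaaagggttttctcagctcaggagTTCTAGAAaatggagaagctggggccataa

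Rnase2a belongs to the eosinophil-associated ribonucleases, a rodent gene family whose members lie close together and are alike in sequence. Its level was low: 2.57 and 2.30 in untreated WT cells, 2.65, 2.62 and 2.41 in WT cells after SRBC, and 2.57 and 2.48 in untreated Notch2-11cKO cells. After SRBC the Notch2-11cKO arrays read 4.26, 4.11 and 4.17, all above every other array and above them by far more than the spread within any group. The Notch2-11cKO response was 1.66 ± 0.12 (3.16-fold; adjusted p 0.000369), the WT response 0.13 ± 0.12, and the interaction 1.53 ± 0.17 (adjusted p 0.0104). These sizes are measured from readings near the low end of the arrays and depend on the scale: with 16 added before the log, the interaction was 0.62 and still passed (adjusted p 0.00229). Even the raised level was below the median probe set of the arrays, which was 29.5 to 31.7 in the deposited linear intensity. The probe sets of 3 relatives did not move with it: the interaction was 0.04 for Rnase2b, 0.00 for Ear14 and 0.07 for Ear6. Rnase2b (2.43 to 2.88) and Ear14 (2.49 to 2.95) stayed near the low end on all arrays, where small changes may not be seen. Ear6 read 4.60 to 4.94. The adjusted p of Rnase2a was 0.107 without WT untreated array 1, 0.0841 without Notch2-11cKO untreated array 1 and 0.108 without Notch2-11cKO untreated array 2. Neutrophil markers averaged 4.07 and 4.08 in untreated WT arrays and 4.45 to 4.51 after SRBC, 4.15 and 4.62 in untreated Notch2-11cKO arrays and 4.67 to 5.02 after SRBC; their part in the Rnase2a difference was not tested.

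The promoter of Rnase2a is given because it was the called gene that responded in Notch2-11cKO cells (RefSeq, GRCm38.p6, chr14:51256113-51256362, minus strand). It held no match to the letters searched: TTCNNGAA, TTTCNNTTTC or GGGANNNNCC, on either strand.
Rnase2a: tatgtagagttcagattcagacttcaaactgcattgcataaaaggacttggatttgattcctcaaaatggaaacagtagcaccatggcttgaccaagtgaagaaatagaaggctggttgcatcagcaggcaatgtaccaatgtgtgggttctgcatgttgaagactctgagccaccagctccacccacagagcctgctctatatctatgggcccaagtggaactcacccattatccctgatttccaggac

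Hes1 encodes a basic helix-loop-helix repressor and is a direct target of Notch. Its level was 7.67 and 7.14 in untreated WT cells and 5.50, 5.29 and 5.17 after SRBC. In Notch2-11cKO cells it was 4.78 and 4.83 untreated and 4.87, 5.67 and 5.16 after SRBC. The 2 untreated WT arrays stood above all the others, and WT arrays after SRBC overlapped the Notch2-11cKO arrays. In WT cells Hes1 fell by 2.09 ± 0.23 on the log2 scale (4.25-fold; adjusted p 0.00108), and the Notch2-11cKO response was 0.42 ± 0.23 (adjusted p 0.604). The interaction was 2.51 ± 0.33, and its adjusted p of 0.0486 was close to the threshold. That p rose to 0.441 without WT untreated array 1, 0.335 without Notch2-11cKO untreated array 2 and 0.242 without Notch2-11cKO untreated array 1. It lay between 0.0538 and 0.121 without WT untreated array 2, WT SRBC array 2 or 3, or Notch2-11cKO SRBC array 2 or 3.

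**Figure D1:**
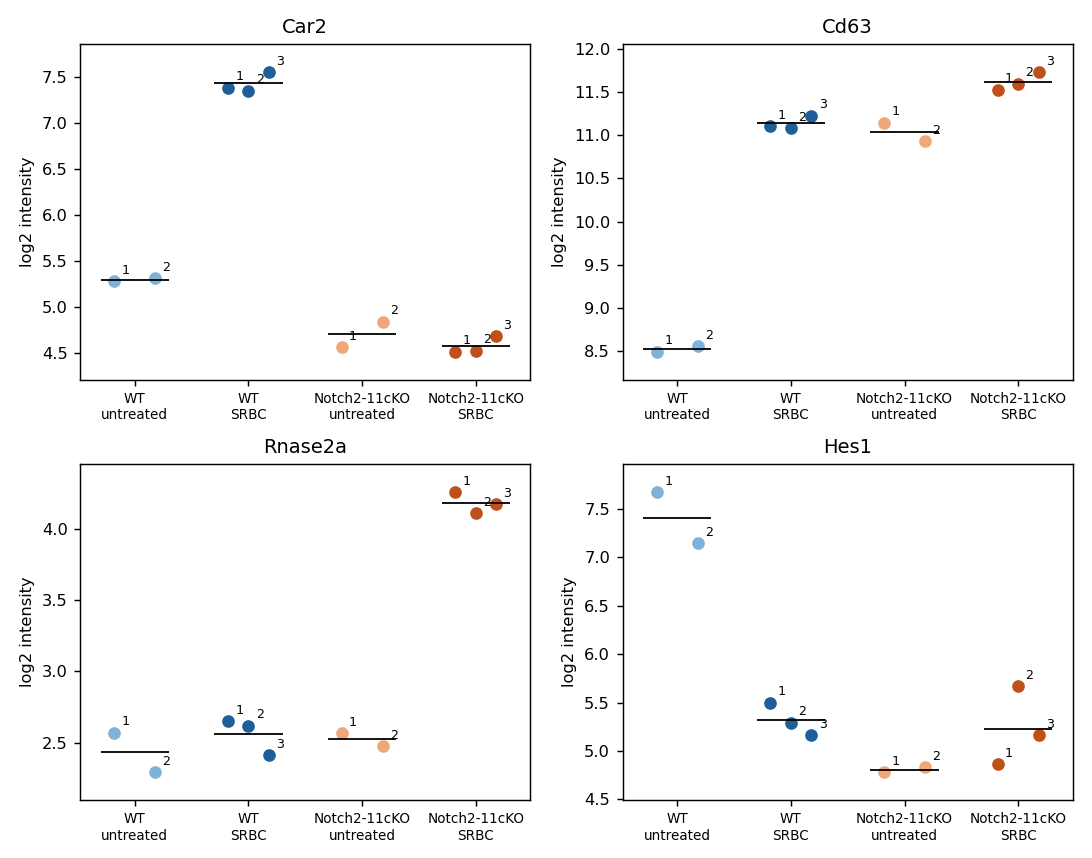
Log2 intensity (y axis) of Car2, Cd63, Rnase2a and Hes1 on each of the 10 arrays, by group (x axis); points are arrays with their replicate numbers and lines are group means. The y axes do not start at 0 and differ between panels. Car2 was high only on the 3 WT SRBC arrays (7.35 to 7.55), Rnase2a only on the 3 Notch2-11cKO SRBC arrays (4.11 to 4.26), Hes1 only on the 2 untreated WT arrays, and Cd63 was low only on those 2 arrays (8.49 and 8.56).

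The genes that came next by p did not pass the adjusted threshold, and those named here were chosen after their values were seen. Prr5l, a component of mTOR complex 2, had opposite responses: 5.41 and 5.32 against 6.28, 6.27 and 5.82 after SRBC in WT cells, and 6.30 and 6.72 against 5.43, 5.36 and 5.26 in Notch2-11cKO cells. Its interaction was -1.93 ± 0.27 (adjusted p 0.0617), and the groups did not overlap within either genotype. Slc12a2, a sodium-potassium-chloride cotransporter, read 9.57 and 9.55 in untreated WT cells and 8.12, 7.71 and 8.11 after SRBC. In Notch2-11cKO cells Slc12a2 stayed between 5.84 and 6.24, giving an interaction of 1.80 ± 0.27 (adjusted p 0.0959). Sgcb, a sarcoglycan, had the same shape as Rnase2a at a smaller size, with WT arrays between 4.39 and 4.80 and Notch2-11cKO arrays at 4.30 and 4.18 untreated and 5.06, 4.88 and 5.22 after SRBC (interaction 1.10 ± 0.19, adjusted p 0.146).

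The receptors Il7r and Cxcr5 were also near the top of this order without passing. Il7r, the alpha chain of the receptors for IL-7 and TSLP, went from 6.45 and 6.32 to 9.02, 9.14 and 9.01 in WT cells, and from 8.46 and 8.60 to 9.30, 9.60 and 9.74 in Notch2-11cKO cells. The WT response of Il7r was 6.36-fold and the Notch2-11cKO response 2.03-fold (interaction -1.65 ± 0.26, adjusted p 0.135). Cxcr5, the receptor for the B cell follicle chemokine CXCL13, went from 2.94 and 2.81 to 5.63, 5.61 and 6.17 in WT cells. In Notch2-11cKO cells Cxcr5 went from 3.21 and 2.85 to 3.87, 4.47 and 4.26. Both Cxcr5 responses passed their own test, at 7.60-fold (adjusted p 7.39e-05) and 2.25-fold (adjusted p 0.0483), and the interaction was -1.75 ± 0.30 (adjusted p 0.146). Untreated Cxcr5 readings were near the low end of the arrays, so these sizes depend on the scale. The arrays of the 2 genotypes after SRBC did not overlap for Cxcr5, whereas those of the untreated cells did.

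Others shared the shape of Cd63, with untreated Notch2-11cKO cells near or above the WT level after SRBC. Ccl22, a ligand of CCR4, read 5.14 and 6.05 in untreated WT cells, 8.41 to 8.64 after SRBC, 10.02 and 10.14 in untreated Notch2-11cKO cells, and 10.02 to 11.05 after SRBC (interaction -2.44 ± 0.44, adjusted p 0.146). Tnip3, which encodes an inhibitor of NF-kB activation, went from 3.49 and 4.05 to 6.85, 6.97 and 7.32 in WT cells, and read 8.85 and 8.51 in untreated Notch2-11cKO cells and 9.16, 9.01 and 10.004 after SRBC. Its interaction was -2.56 ± 0.43 (adjusted p 0.146), measured from untreated WT readings near the low end of the arrays. Cxcl16, a membrane-bound chemokine and scavenger receptor, read 8.10 and 8.25 and then 9.35 to 9.92 in WT cells, against 9.62 to 10.17 on all Notch2-11cKO arrays (interaction -1.72 ± 0.28, adjusted p 0.146). Ppargc1a, a coactivator of mitochondrial genes, was different in shape: it read 4.18 and 4.49 and then 6.12, 6.81 and 6.79 in WT cells, and 3.05 to 3.97 on all Notch2-11cKO arrays (interaction -1.98 ± 0.37, adjusted p 0.146).

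Taken gene by gene, the SRBC response was called in 756 genes in WT cells (3.79%) and in 61 genes in Notch2-11cKO cells (0.306%), with the same numbers of arrays. The median standard error was 0.173 for both. It is equal by construction, because the fit pools the spread of all groups, and does not show that the genotypes varied equally. Over all 19938 genes the 2 responses, which share no array, correlated at a Pearson r of 0.563 (Spearman rho 0.412); this is across genes, which are not independent replicates. Among the 363 genes that rose in WT cells (1.82%) the median response was 1.22 in WT and 0.483 in Notch2-11cKO cells, 333 had the same direction in both, and 20 also passed in Notch2-11cKO cells. The 393 genes that fell in WT cells (1.97%) had medians of -1.07 and -0.407, with 351 in the same direction and 19 passing in both. These sets were chosen by their WT response, which by itself favours a smaller value in the other genotype. Chosen the other way round, the 28 genes that rose in Notch2-11cKO cells (0.14%) had a median of 1.62 there and 1.97 in WT cells, and the 33 that fell (0.166%) had -1.37 and -1.20. Like medians do not mean like responses gene by gene: 18 of those 28 genes (9 toward a smaller WT response and 9 toward a larger one) and 17 of the 33 (12 and 5) had an unadjusted interaction p under 0.05.

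The same picture held among the 1289 genes with an unadjusted interaction p under 0.05. Some genes reach that p without any interaction. By the larger of the 2 responses in absolute size, the WT increase was the larger in 456 (35.4%) and the WT decrease in 479 (37.2%). The smaller response could have either direction. In 188 genes (14.6%) the Notch2-11cKO increase was the larger, and in 166 (12.9%) the Notch2-11cKO decrease. The array pairs give a view without a model. With 6 SRBC-minus-untreated differences per genotype, those of the genotypes did not overlap in 1704 genes (8.55%), 815 with WT above (4.09%) and 889 with Notch2-11cKO above (4.46%). The 6 differences share arrays, and the share to be found without any interaction was not computed. The 1704 are thus not a count of genotype-dependent genes.

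**Figure D2:**
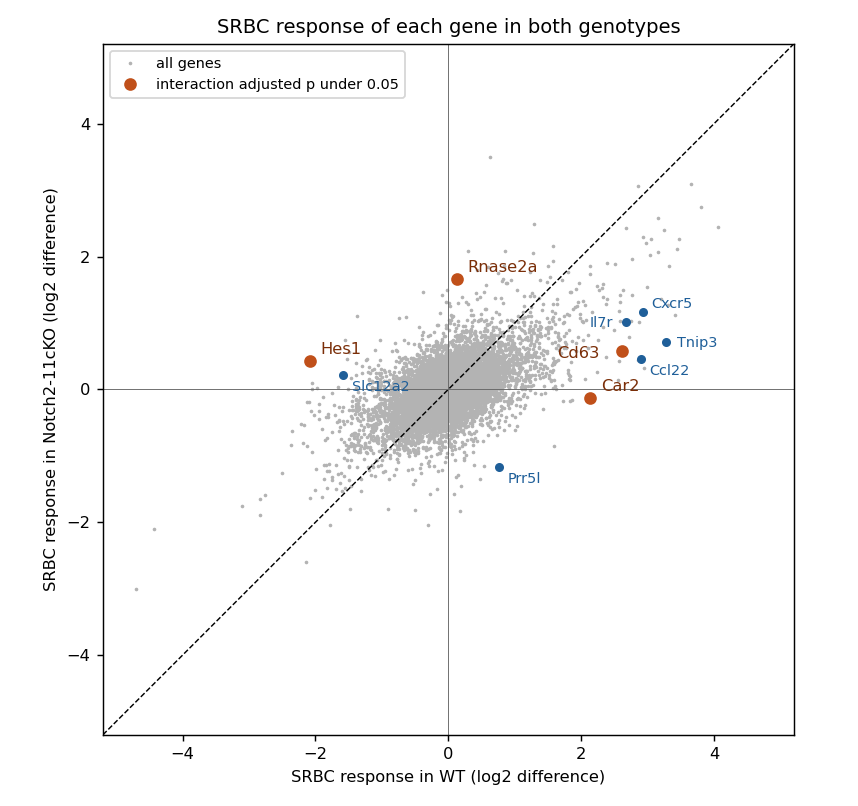
SRBC response in WT cells (x axis) against that in Notch2-11cKO cells (y axis), both as log2 differences, with 1 point for each of the 19938 genes. The dashed line marks equal responses; the 4 called genes are orange and 6 of the genes next in order blue. Car2, Cd63 and the blue points at right lie well below the line at WT responses above 2, Hes1 and Slc12a2 lie above it on the left, and Rnase2a lies above it near a WT response of 0.

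Gene groups were described from lists of pathway members, which held 651 distinct measured genes. Of these, 3 passed (Hes1, Cd63 and Car2) and 120 had an unadjusted p under 0.05. The background for such unadjusted counts was 3.35% of all genes in the positive and 3.12% in the negative direction, and the median interaction over all genes was 0.01. No list is called different from other genes, and apart from the 3 genes above none of the members named passed the adjusted threshold.

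In the Notch pathway list (21 genes), Hes1 passed, Dtx1 was positive and Rbpj negative at unadjusted p under 0.05, and the median interaction was 0.11. Dtx1, a ubiquitin ligase and Notch target, read 8.58 and 7.64 in untreated WT cells and 7.15, 6.27 and 6.63 after SRBC, whereas Notch2-11cKO arrays all lay between 5.38 and 5.82. Its WT response passed (adjusted p 0.0250), and its interaction was 1.33 ± 0.43 (adjusted p 0.566). Rbpj, the DNA-binding partner, had an interaction of -0.91 ± 0.29. Notch2 itself had WT and Notch2-11cKO responses of -0.87 and -0.66, neither past the threshold, and an interaction of 0.21 ± 0.34.

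Genes that mark the Notch2-dependent, ESAM-high fraction of cDC2 and those of the ESAM-low fraction had median interactions of opposite sign, 0.85 and -0.72. Of 10 ESAM-high genes, 9 were positive, 5 of them at unadjusted p under 0.05 (Cdh17, Gpr183, Dtx1, Clec4a4 and Jaml). Cd8a, which is also counted below among the markers of type 1 conventional dendritic cells, was negative at that level (-0.78 ± 0.29). The median response was -0.85 in WT and 0.05 in Notch2-11cKO cells. The mean of this list was 6.85 and 6.82 in untreated WT cells, 5.96 to 6.25 after SRBC, and 5.15 to 5.37 on all Notch2-11cKO arrays, so the WT groups were apart and the Notch2-11cKO groups overlapped. Gpr183, the oxysterol receptor that places cDC2 in the bridging channels, read 10.49 and 10.36 and then 10.02, 9.91 and 9.76 in WT cells, and 8.74 and 9.02 and then 9.37, 9.51 and 9.18 in Notch2-11cKO cells (interaction 1.00 ± 0.25, adjusted p 0.336). Clec4a4, the lectin recognised as DCIR2, read 7.71 and 8.13 and then 6.33, 7.06 and 6.93 in WT cells and 3.23 to 4.48 in Notch2-11cKO cells (interaction 1.18 ± 0.46). Esam itself had 0.69 ± 0.42 and Cd4 0.47 ± 0.29.

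Of 14 ESAM-low genes, 13 were negative and 5 had an unadjusted p under 0.05 (Mgl2, Clec10a, Cd36, Fn1 and Fcgr3), with a median response of 0.23 in WT and -0.58 in Notch2-11cKO cells. Mgl2, a galactose-type lectin, was near the low end in WT cells (2.98 to 4.26) and read 8.80 and 9.08 in untreated Notch2-11cKO cells against 7.06, 7.09 and 7.17 after SRBC. Clec10a, its close relative, read 3.35 to 3.88 in WT cells and went from 8.63 and 8.56 to 7.38, 6.59 and 7.44 in Notch2-11cKO cells. Their interactions were -2.01 ± 0.42 (adjusted p 0.214) and -1.65 ± 0.35 (adjusted p 0.229). Mgl2 and Clec10a are alike in sequence, so their probe sets may share signal. Cd36, a scavenger receptor, differed in that the WT level went from 4.18 and 4.69 to 6.24, 6.54 and 6.70 while Notch2-11cKO arrays stayed between 9.01 and 10.09. Ccr2, which marks the monocyte-like fraction, had an interaction of -0.57 ± 0.46.

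Maturation genes had a median response of 1.16 in WT and 0.66 in Notch2-11cKO cells over 28 genes. Of these, 15 rose in WT cells and 3 in Notch2-11cKO cells, against 1.82% and 0.14% of all genes. The interaction was negative in 22, and 11 had an unadjusted p under 0.05, all negative (Ccl22, Nudt17, Tnfrsf4, Marcksl1, Socs2, Ly75, Tnfrsf9, Birc3, Tmem123, Cd200 and Relb). The mean of the list was 7.09 and 7.18 in untreated WT cells against 7.72 and 7.94 in untreated Notch2-11cKO cells, and 8.28 to 8.84 against 8.43 to 8.78 after SRBC, where the genotypes overlapped. Tnfrsf4, the OX40 receptor, read 5.44 and 5.34 and then 7.40 to 8.19 in WT cells, and 5.88 and 5.30 and then 6.80 to 6.95 in Notch2-11cKO cells (interaction -1.10 ± 0.34, adjusted p 0.540).

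The receptors and signals through which a mature cDC2 meets T cells did not pass with all arrays. Ccr7, the receptor for the T cell zone chemokines CCL19 and CCL21, read 9.47 and 9.81 and then 11.90, 11.34 and 11.05 in WT cells, and 9.76 on both untreated Notch2-11cKO arrays and then 11.17, 10.65 and 10.89. Its interaction was -0.65 ± 0.34 (adjusted p 0.831). The interaction of Cd80 was -0.46 ± 0.25 (adjusted p 0.833), that of Cd86 -0.11 ± 0.38 and that of Cd40 0.48 ± 0.50. Among the cytokines, Il6 was higher after SRBC in WT cells by 3.24 (adjusted p 0.00322) and had a Notch2-11cKO difference of 2.40 (adjusted p 0.0614), with an interaction of -0.84 ± 0.65. The Il6 interaction ran from -1.40 to -0.55 with single arrays left out, passed at -1.58 (adjusted p 0.0332) without both arrays that stand apart, and was 0.65 on those 2. With 16 added before the log it was 0.12, without passing. Il12b, the p40 subunit of IL-12 and IL-23, had 3.80 and 2.75 and an interaction of -1.05 ± 0.73, and Il23a 0.28 ± 0.23. These standard errors allow sizeable differences in either direction, and a p that misses the threshold does not show that the genotypes responded alike.

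NF-kB subunits and their feedback inhibitors had a median response of 0.38 in WT and -0.06 in Notch2-11cKO cells over 17 genes. The interaction was negative in 16, and 6 had an unadjusted p under 0.05 (Tnip3, Nfkbia, Nfkbib, Traf1, Birc3 and Relb, the last pair also counted among the maturation genes). Nfkbia, which encodes IkB-alpha, read 9.84 and 9.88 and then 10.95, 10.37 and 10.40 in WT cells, and 11.68 and 11.53 and then 11.43, 11.09 and 11.15 in Notch2-11cKO cells (interaction -1.10 ± 0.27, adjusted p 0.336). As a mean, the list read 8.28 and 8.31 in untreated WT cells, 8.78 to 8.88 after SRBC and 8.71 to 9.22 on Notch2-11cKO arrays. The promoters of the 2 members with the smallest p are shown for the letters GGGANNNNCC, a short form of the NF-kB motif, on either strand and in capitals (RefSeq, GRCm38.p6; Tnip3 at chr6:65590148-65590397, plus strand; Nfkbia at chr12:55492648-55492897, minus strand). These letters were in 9 of the 15 promoters held for the list (60%), 9 of 18 of the maturation genes (50%) and 23% of all 15614. A match is a description of the letters and not a site.
Tnip3: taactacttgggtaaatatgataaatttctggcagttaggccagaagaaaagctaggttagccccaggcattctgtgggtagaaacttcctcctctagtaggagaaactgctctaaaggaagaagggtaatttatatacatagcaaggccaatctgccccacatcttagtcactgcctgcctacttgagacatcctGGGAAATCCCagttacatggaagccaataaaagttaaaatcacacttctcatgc
Nfkbia: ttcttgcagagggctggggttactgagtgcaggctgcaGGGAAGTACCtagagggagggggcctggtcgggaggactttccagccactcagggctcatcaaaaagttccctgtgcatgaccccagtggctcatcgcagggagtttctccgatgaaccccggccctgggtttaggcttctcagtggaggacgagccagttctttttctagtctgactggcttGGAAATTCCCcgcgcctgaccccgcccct

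Chemokines and other ligands went both ways. Of 22 chemokines, Ccl4, Ccl5, Ccl3 and Ccl8 were positive and Cxcl16, Ccl22, Cxcl2 and Ccl6 negative at unadjusted p under 0.05. Ccl4 read 11.73 and 11.61 in untreated WT cells, 9.34 to 9.71 after SRBC, and 10.11 and 10.41 in untreated Notch2-11cKO cells. After SRBC the Notch2-11cKO arrays read 9.81, 9.27 and 11.11, the highest being the array that stands apart. The Ccl4 interaction was 1.93 ± 0.56 (adjusted p 0.471) over 10 arrays and 1.31 over 8.

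Heat shock chaperones, which fold and refold cytosolic and mitochondrial proteins, were lower after SRBC, by a median of -1.06 in WT and -0.36 in Notch2-11cKO cells over 18 genes. In WT cells 11 fell and in Notch2-11cKO cells 2, against 1.97% and 0.166% of all genes. The interaction was positive in 17, and 10 had an unadjusted p under 0.05, none of them negative (Hsph1, Hsp90aa1, Dnajb1, Hspa1a, Hspd1, Chordc1, Ahsa1, Hspa8, Hspe1 and Dnajb4). Hsph1, a co-chaperone of HSP70, read 11.26 and 10.81 and then 6.23, 6.39 and 6.40 in WT cells, and 9.72 and 10.32 and then 7.27, 7.14 and 6.63 in Notch2-11cKO cells (interaction 1.69 ± 0.36, adjusted p 0.214). Hspa1a, an inducible HSP70, read 11.41 and 11.27 and then 7.13, 6.62 and 6.98 in WT cells, against 10.89 and 11.12 and then 9.58, 9.76 and 7.39 in Notch2-11cKO cells. The last array, which stands apart, was near the WT level; the Hspa1a interaction was 2.33 ± 0.77 (adjusted p 0.587) over 10 arrays and 3.20 over 8. The mean of the list was 9.36 and 9.23, then 7.78 to 7.95 in WT cells, and 8.85 and 9.19, then 8.26 to 8.43 in Notch2-11cKO cells.

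Immediate-early genes, which like chaperones respond within minutes to handling and stress of cells, were lower after SRBC in both genotypes, by medians of -0.66 and -0.73 over 27 genes. None had an unadjusted interaction p under 0.05. The mean of this list differed within the SRBC groups: 8.96, 8.60 and 8.67 in WT and 9.16, 8.92 and 8.52 in Notch2-11cKO cells, so that the highest WT array and the lowest Notch2-11cKO array were the 2 that stand apart. Without them, 8 members had a positive interaction past the adjusted threshold (Egr1, Atf3, Btg2, Nr4a1, Fosb, Fos, Egr2 and Jun). Over the same arrays 1.4% of all genes did. Leaving out those 2 arrays by itself favours positive interactions in this list, so these calls partly follow from that choice. Egr1, for example, had 1.17 ± 0.62 over 10 arrays and 1.99 over 8. With the immediate-early mean of each array as a covariate, 10 genes passed in the interaction, among them the 4 called without it (Car2 -2.22, Cd63 -1.99, Hes1 2.50 and Rnase2a 1.502). The promoter of Hsph1 holds TTCNNGAA on the strand shown (RefSeq, GRCm38.p6, chr5:149636337-149636586, minus strand); these letters were in 4 of the 15 promoters held for the chaperones (26.7%) and in 7.45% of all.
Hsph1: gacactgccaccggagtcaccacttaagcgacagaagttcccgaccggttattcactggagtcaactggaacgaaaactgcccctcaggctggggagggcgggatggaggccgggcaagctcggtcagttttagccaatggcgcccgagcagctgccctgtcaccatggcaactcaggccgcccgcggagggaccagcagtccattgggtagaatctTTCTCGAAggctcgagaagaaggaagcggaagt

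Type I interferon-stimulated genes had a positive interaction in 26 of 26 members, with a median of 0.76. Their median response was -0.56 in WT and 0.13 in Notch2-11cKO cells, and Oas2, Oasl2, Cmpk2, Ddx58 and Xaf1 had an unadjusted p under 0.05. Both arrays that stand apart were at the ends of this list: it averaged 7.56 on Notch2-11cKO SRBC array 3 against 6.55 and 6.56 on the others of its group, 6.51 and 6.83 in untreated Notch2-11cKO cells, and 6.80 and 7.08 then 6.14, 6.45 and 6.61 in WT cells, the lowest being WT SRBC array 1. Over the other 8 arrays the median interaction was 0.43, and the members no longer shared a direction: Ifit1, an interferon-induced antiviral protein, had 0.93 ± 1.62 over 10 arrays and passed as negative over 8 (-1.38, adjusted p 0.0216). Oas2, a synthase of the RNase L activator, kept its direction over 8 arrays: it read 8.03 and 8.58 and then 6.50, 5.97 and 6.25 in WT cells and 5.73 to 6.62 in Notch2-11cKO cells (interaction 1.74 ± 0.38, adjusted p 0.248; 1.96 over 8 arrays). The promoter of Oas1a, another member, shows the letters TTTCNNTTTC of the interferon-stimulated response element as 2 overlapping matches, here read on the reverse strand (RefSeq, GRCm38.p6, chr5:120907526-120907775, minus strand). They were in 8 of the 19 promoters held for the list (42.1%) and in 3.4% of all.
Oas1a: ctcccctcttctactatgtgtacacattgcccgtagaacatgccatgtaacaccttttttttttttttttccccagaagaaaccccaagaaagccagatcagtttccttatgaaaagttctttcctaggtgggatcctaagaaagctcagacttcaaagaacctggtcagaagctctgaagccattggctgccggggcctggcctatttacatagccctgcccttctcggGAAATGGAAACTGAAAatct

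**Figure D3:**
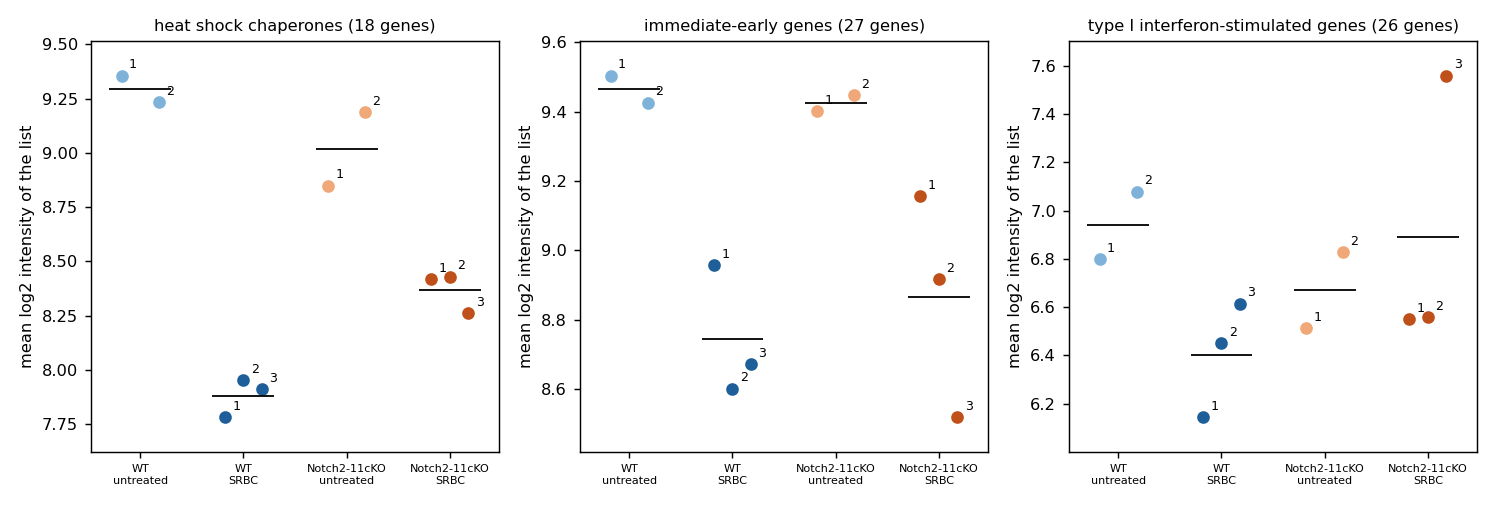
Mean log2 intensity (y axis) of the heat shock, immediate-early and type I interferon lists on each array, by group (x axis); points are arrays with replicate numbers and lines are group means, and the y axes do not start at 0. The chaperone means of the genotypes after SRBC do not overlap (7.78 to 7.95 in WT, 8.26 to 8.43 in Notch2-11cKO), the immediate-early means do, and the interferon mean of Notch2-11cKO SRBC array 3 (7.56) is the highest.

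Genes for taking up and handling particles and lipid went both ways, with 15 of 24 Fc receptor and engulfment genes, 17 of 21 LXR target and lipid genes and 12 of 20 C-type lectins negative. The lysosome list had 14 positive and 12 negative members (median 0.01) and cholesterol synthesis 9 and 5 (median 0.11). Of the engulfment genes, 6 were negative at unadjusted p under 0.05 (Cd36, Axl, C1qc, Fcgr3, Lrp1 and C1qa) and 2 positive (Itgb3 and Megf10). C1qc, a chain of complement C1q, went from 6.34 and 6.76 to 7.58, 8.52 and 8.70 in WT cells and stayed between 9.29 and 9.89 in Notch2-11cKO cells (interaction -1.65 ± 0.44, adjusted p 0.376). Axl, a receptor for phosphatidylserine bridged by GAS6, differed in shape: it was 5.14 to 5.87 in WT cells and went from 8.83 and 8.75 to 8.27, 7.26 and 7.42 in Notch2-11cKO cells (interaction -1.52 ± 0.39, adjusted p 0.360). Among 21 LXR target and lipid genes, Cd36, Smpdl3a, Plin2, Lpl and Fabp5 were negative at that level and none positive, and of the C-type lectins 7 were negative and 3 positive. Of the heme and iron genes, Spic, Hmox1 and Nfe2l2 were negative and Tfrc positive; Tfrc, the transferrin receptor, read 8.00 and 7.88 and then 6.97, 6.17 and 6.14 in WT cells against 5.70 to 6.06 in Notch2-11cKO cells (interaction 1.51 ± 0.34, adjusted p 0.276).

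Several of these are macrophage markers. Of the 17 macrophage markers measured, 6 were negative at unadjusted p under 0.05 (Axl, C1qc, Vcam1, C1qa, Spic and Hmox1). The list averaged 5.78 and 5.90 in untreated WT cells and 6.24 to 6.71 after SRBC, against 7.16 and 7.42 in untreated Notch2-11cKO cells and 7.29 to 7.57 after SRBC. Their part in the engulfment, lipid and iron results was not tested. Of 12 markers of type 1 conventional dendritic cells, Xcr1, Clec9a, Cd8a, Irf8 and Cadm1 were negative and Tlr3 positive, with list means of 5.73 and 6.05 then 6.43 to 6.52 in WT and 6.39 to 6.67 on all Notch2-11cKO arrays. Irf8, the transcription factor of that lineage, read 4.61 and 5.73 and then 6.13 to 7.09 in WT cells and 7.02 to 7.47 in Notch2-11cKO cells (interaction -1.24 ± 0.47), and Irf4, that of cDC2, had 0.47 ± 0.50. Il7r and Klre1 were the members of the T cell and NK cell lists at unadjusted p under 0.05, and Bank1 and Cd22 those of the B cell list, both positive.

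Cell cycle genes of the G2 and M phases were positive in 28 of 31 members, with medians of -0.49 in WT and 0.00 in Notch2-11cKO cells; Aurka, Tpx2, Cenpf, Mki67 and Ube2c had an unadjusted p under 0.05. The list averaged 6.55 and 6.68 in untreated WT cells, 5.89 to 6.35 after SRBC and 5.33 to 5.87 on all Notch2-11cKO arrays. Of 22 JAK-STAT and SOCS genes 19 were negative, with Il7r, Socs2 and Csf2rb2 at unadjusted p under 0.05. No member of the lists for MHC class I presentation, interferon-gamma-inducible genes, the unfolded protein response, NRF2 and glutathione, or ribosomal proteins reached an unadjusted p under 0.05 over 10 arrays. Their medians lay between -0.25 and 0.21. Over the 8 arrays Cxcl10 of the interferon-gamma list passed as negative (-2.11, adjusted p 0.00147) and Rplp1 of the ribosomal list as positive.

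**Figure D4:**
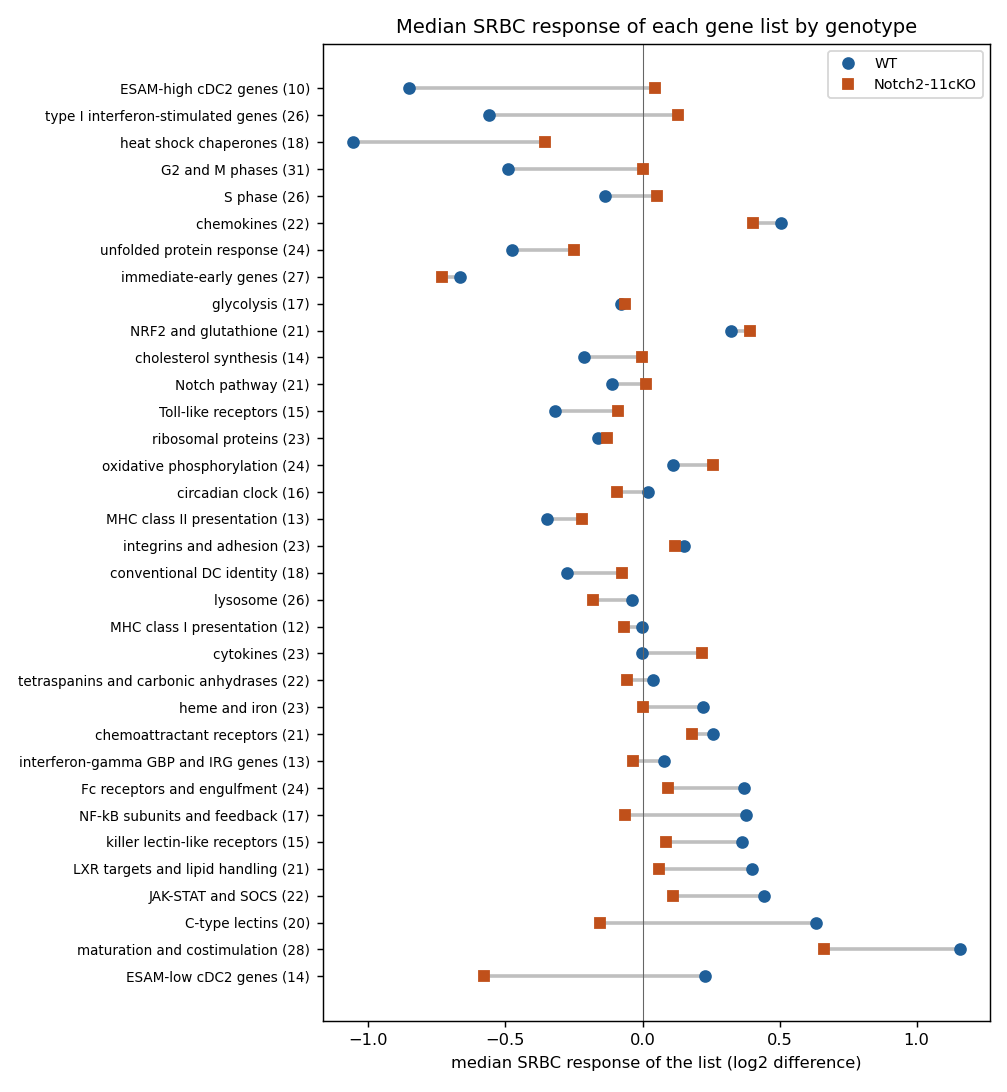
Median SRBC response (x axis, log2 difference) of each of the 34 pathway lists in WT (blue circles) and Notch2-11cKO cells (orange squares), with the number of measured genes in brackets; grey lines join the genotypes and lists are ordered by their median interaction. The widest gaps were those of ESAM-high genes (-0.85 and 0.05), ESAM-low genes (0.23 and -0.58) and C-type lectins (0.63 and -0.15).

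How many genes depended on genotype turned on the 2 arrays that stand apart. Without them, 604 genes passed in the interaction (3.03%; 279 positive, 1.4%, and 325 negative, 1.63%), among them the 4 called with all arrays. Leaving out only WT SRBC array 1 gave 44, and leaving out only Notch2-11cKO SRBC array 3 gave 7. The genes with the largest interactions over 8 arrays were often those on which the left-out arrays read like the other genotype. Mpp7, a membrane scaffold protein, read 5.39 and 5.32 in untreated WT cells and 5.70, 8.34 and 8.51 after SRBC, and 5.06 and 5.61 in untreated Notch2-11cKO cells and 5.67, 5.66 and 8.16 after SRBC. On the arrays that stand apart, the low value was in WT and the high one in Notch2-11cKO cells. Map4k4, a kinase, read 8.43, 9.83 and 9.79 in WT and 8.17, 7.67 and 9.85 in Notch2-11cKO cells after SRBC. Cd69, an early activation marker, read 7.82, 5.63 and 5.92 in WT and 7.34, 7.001 and 6.11 in Notch2-11cKO cells after SRBC.

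The 2 left-out arrays were then read as a separate estimate of the interaction, with the untreated arrays shared. Of the 604 genes, 307 had the same sign there and 297 the opposite (50.8% the same), and the median in the direction of the 8-array call was 0.0354, against a median size of 1.36 over the 8 arrays. The 2 arrays were left out because they differ from their groups, so part of this disagreement follows from that choice, and the estimate rests on 1 SRBC array of each genotype. It is given as a description. For the 4 genes called with all arrays the left-out arrays gave values close to those of the 8, although they also took part in the call: -2.10 and -2.33 for Car2, -1.88 and -2.11 for Cd63, 1.43 and 1.58 for Rnase2a, and 2.26 and 2.64 for Hes1. Some genes that missed the threshold also had close values, with Prr5l at -2.18 and -1.80 and Slc12a2 at 1.66 and 1.87. Il7r had -1.41 and -1.77, and Cxcr5 -1.52 and -1.87. Tnip3 was less close, at -1.76 and -2.97. These genes stood near the top by p over all arrays, the left-out ones included. Such a p favours agreement between the left-out arrays and the other 8, so their agreement is not separate evidence. For Mpp7 the values were 2.49 and -2.74.

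**Figure D5:**
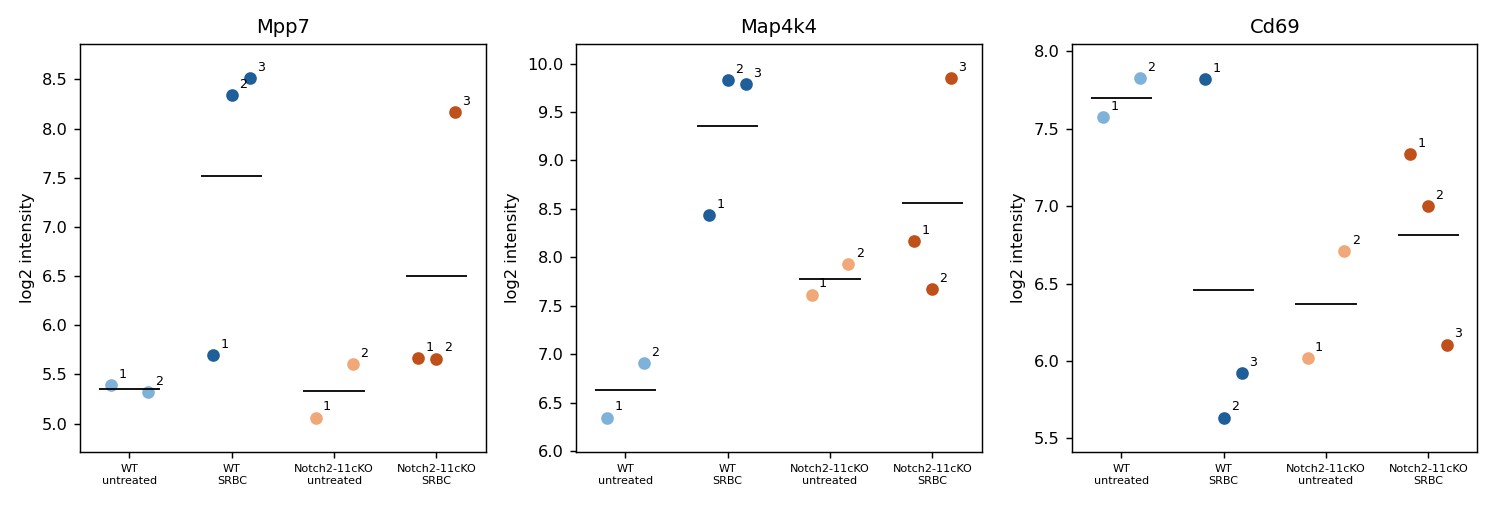
Log2 intensity (y axis) of Mpp7, Map4k4 and Cd69 on each array, by group (x axis); points are arrays with replicate numbers, lines are group means, and the y axes do not start at 0. After SRBC, WT array 1 lies away from WT arrays 2 and 3, and Notch2-11cKO array 3 away from arrays 1 and 2, towards the other genotype.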

How the data were processed

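RNA of sorted cDC2 was labelled with biotin after amplification with the Ambion WT Expression kit and hybridised to 10 arrays, per the labels' protocols. The deposited values are probe set intensities on a linear scale (2.57 to 11436.78; array medians 29.5 to 31.7), made by the authors with a background correction and normalization that are not given in the sources used here. They held no detection calls and no scan dates, so detection and scan batches were not analysed here. Precision is limited by the number of arrays.

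Values were taken as log2. Of 28853 probe sets, 21789 had 1 gene symbol, 1621 several and 5443 none; only the first were used, with the brightest probe set of each symbol (999 symbols had more than 1). A mean for each group was fitted with limma 3.58.1 in R 4.3.3 (lmFit, contrasts.fit, eBayes with trend; 6 residual and 5.25 prior degrees of freedom), two-sided, with Benjamini-Hochberg adjustment over 19938 genes and a threshold of 0.05. The fit was tested on simulated data with independent noise of the fitted spread. Those data held no array that stands apart, so they do not bear on the effect of such arrays. Errors are standard errors of that fit. The rule for named genes took the called genes, called list members and a fixed set of 22 genes of Notch, cDC2 and maturation biology; all other genes, including list members named at an unadjusted p under 0.05, were chosen after their values were seen. The contrast, the 45 gene lists (814 of 878 entries measured), these genes and the 2 arrays that stand apart were chosen with earlier results of these data known. Alternatives covered probe sets, filters, normalization, variance model, weights, pseudocount, a replicate block, an immediate-early covariate and left-out arrays. Promoters, the 250 bases before each start, came from RefSeq (GRCm38.p6); Hes1 and Car2 had none in that table.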

Additional observations from a re-analysis of the deposited data

Results flagged for a closer look

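The 4 genes whose responses differed between genotypes by the test of the difference itself are listed here as the results to look at again. The interaction was -2.26 for Car2 and -2.03 for Cd63, both with higher levels after SRBC in WT cells, 1.53 for Rnase2a, which was higher after SRBC in Notch2-11cKO cells, and 2.51 for Hes1, which was lower after SRBC in WT cells. Before SRBC the genotype difference (Notch2-11cKO minus WT) was -0.59 for Car2 and 0.09 for Rnase2a, against 2.51 for Cd63 and -2.60 for Hes1.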

How the results depend on the processing

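The 4 interaction calls were few at every setting that kept all arrays at equal weight: 2 genes with dim genes left out, 7 without the mean-variance trend and 10 with the immediate-early mean as a covariate (6 of them list members, against 3). Estimated array weights gave 63 (15 list members). Leaving out both arrays that stand apart gave 604 (84 list members). Leaving out single arrays gave 0 to 44 genes and 0 to 14 list members: limma called 0 without WT untreated array 1 (916 at an unadjusted p under 0.05), 1 without Notch2-11cKO untreated array 1, 44 without WT SRBC array 1 and 7 without Notch2-11cKO SRBC array 3. None of the 4 called interactions changed direction at any setting that tested it. This did not hold for every gene named here. Without both arrays that stand apart, Ifit1 passed as negative (-1.38), but it was positive with all arrays. Il6 also passed as negative without them (-1.58), but it was positive, without passing, with 16 added before the log. Deviations of same-numbered arrays from their group means correlated at -0.22 to 0.48, the highest being 0.48 between SRBC arrays 1 and 0.40 between SRBC arrays 3. Differently numbered arrays were not compared, so whether replicate numbers pair the arrays is not settled. A replicate block gave 6 calls, 3 of them shared with the 4, and lost Hes1 (adjusted p 0.0745). The block added Ppargc1a (0.0213), Prr5l and Tnip3 (both 0.0490). Hes1 was also lost after quantile normalization (0.0641) and with dim genes left out (0.0505), and Rnase2a, too dim, was not tested there. With 2 untreated arrays in each genotype, only large differences could pass.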

Other observations

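Clock genes also had interactions that missed the threshold. Ciart, a clock repressor, had a positive and Nfil3, Nr1d1 and Bhlhe40 a negative interaction at unadjusted p under 0.05, among 16 such genes with a median of 0.04. Of 15 Toll-like receptor genes, Tlr7, Tlr3 and Myd88 were positive and Ticam1 negative. Tlr7, an endosomal sensor of single-stranded RNA, read 7.82 and 8.07 and then 7.54, 6.86 and 6.74 in WT cells, and 6.23 to 6.66 on all Notch2-11cKO arrays (interaction 1.18 ± 0.33, adjusted p 0.427). Of 15 killer lectin-like receptor genes, Klrb1b, Klra2, Klrb1a and Klre1 were negative and Klrb1f positive; members of this family are alike in sequence, so their probe sets may share signal. Among MHC class II genes, H2-DMa and H2-Ob, parts of the peptide-loading machinery and its inhibitor, were positive, and the list's median of 0.03 was close to that of all genes.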
